A study of Mus musculus with 6 samples.

Results

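The genes described here were 35 mouse genes of glycolysis and of the transcriptional response to low oxygen, taken by name in RAW264.7 cells, a mouse monocyte and macrophage line that can be turned into osteoclast-like cells. Of the 35, 32 could be measured, out of 18194 genes on the arrays. A gene was measured where at least 1 probe set was annotated to it and to no other gene, and where it had several, the brightest of them on average stood for it. No probe set of this kind was named here for Gpi1 and Eno1, and Bnip3l lay on probe sets annotated to several genes, so these 3 have no values. The gene listed as Ero1l appears under its current symbol, Ero1a. By role, the measured genes were 14 glycolytic enzymes, 3 regulators of glycolysis, 4 glucose and lactate transporters, 3 genes of oxygen sensing and 8 targets of the hypoxia-inducible factors (HIF) that lie outside glycolysis.

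The study asked how cells of the osteoclast lineage respond to low extracellular sodium. Cells were kept for 24 h in normal medium with 137 mmol/l sodium or in medium with 120 mmol/l sodium, and total RNA was hybridised to Affymetrix arrays, with 3 arrays per medium. The normal medium held 4.5 g/l glucose and 10% fetal bovine serum. The low-sodium medium was normal medium diluted with water, sodium-free minerals, amino acids and vitamins, with mannitol added to hold osmolality at 290 mOsm/l. Glucose is not among the listed components of the diluent, so a lower glucose concentration cannot be told apart from the lower sodium concentration in any difference given here. The protocol names 10 ng/ml M-CSF and 30 ng/ml RANKL, the cytokines that drive osteoclast formation, and its wording does not settle whether the normal-sodium cultures received them as well. The labels speak of 4 biological replicates per medium, and 3 per medium are analysed here. No knockout or transgene was involved, and every array came from the same cell line.

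Glycolysis converts glucose to pyruvate in the cytosol, and lactate dehydrogenase turns pyruvate into lactate, which leaves the cell through monocarboxylate transporters. HIF-1, made of an oxygen-regulated subunit (HIF-1α, from Hif1a) and a constant partner (ARNT), raises the transcription of most glycolytic enzymes together with genes of angiogenesis, mitophagy and pH control. Prolyl hydroxylases encoded by the Egln genes mark HIF-1α for destruction when oxygen is present, and activated macrophages as well as differentiating osteoclasts are known for high glycolytic flux.

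Replicate 3 stood apart from the other replicates on the control probe sets. Spiked Bacillus transcripts, which are added to the RNA before labelling, averaged 10.34 log2 units for replicates 1 and 2 but 8.52 for replicate 3, alike in both media, while the hybridisation controls differed little (12.35 and 12.45). For dap, one of those spikes, the 3′ end gave more signal than the 5′ end, by 1.29 log2 units for replicates 1 and 2 but 3.11 for replicate 3. The control probe sets of the cells' own transcripts showed no such widening. Their 3′ minus 5′ difference was -0.30 for replicates 1 and 2 and -0.23 for replicate 3 for Gapdh. For Actb it was 0.24 and 0.09. The median intensity was 66.5 to 74.5 on the arrays of replicates 1 and 2 and 56.1 and 47.8 on those of replicate 3, and the labels name no batch. Every difference is therefore given for replicates 1 and 2 together (2 arrays per medium) and for replicate 3 (1 array per medium). All values are log2 of the deposited intensity plus 1, differences are low minus normal sodium, and a probe set's level is not set against that of another.

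Fits were made across all 18194 genes with limma, with Benjamini-Hochberg adjustment and a threshold of 0.05. The plain fit of low against normal sodium called 1 gene (0.00550% of those tested) and none of the 32, of which 4 had an unadjusted p under 0.05. The fit with a term for replicate 3 and a prior spread that follows the signal level called 1382 genes (7.60%), 688 higher (3.78%) and 694 lower (3.81%). Among the 9097 genes brighter than the median gene, to which all 32 belong, 14.8% were called. It called 3 of the 32 genes (9.38%), a share near these backgrounds: Hk3 and Vegfa were higher in low sodium and Slc16a1 was lower. It was known from earlier results of these data to give more calls than other models of the 6 arrays, and with a prior spread shared by all genes it called 2 genes (0.0110%) and none of the 32, of which 6 had an unadjusted p under 0.05. Below, "rose" and "fell" are used for genes called in the fit with a term for replicate 3, and these 3 calls were lost in the plain fit, where the adjusted p of the 32 genes lay between 0.469 and 0.998.

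Hk3, which encodes a hexokinase of myeloid cells and so one of the enzymes that trap glucose in the cell, rose in low sodium. Its log2 signal was 10.73, 10.71 and 10.62 with normal sodium and 11.47, 11.42 and 12.23 with low sodium. Each low-sodium array lay above every normal-sodium array, and the normal-sodium arrays lay close to each other. Replicates 1 and 2 differed by 0.72 and replicate 3 by 1.61, with group means of 10.69 ± 0.0562 and 11.71 ± 0.456 (SD, n = 3). The fit with a term for replicate 3 gave 1.02 with a standard error of 0.167 and a limma adjusted p of 0.0133, against 0.469 in the plain fit. The call was lost without normal-sodium replicate 2 (adjusted p 0.0533) and with median centring (0.0541). Since the RNA came from whole cultures, a change in the number of cells of one kind and a change in RNA per cell cannot be told apart here or in any later result. Of 10 osteoclast markers, 5 rose (Ctsk, Mmp9, Dcstamp, Ocstamp and Atp6v0d2, against 3.78% of all genes) and none fell, and 4 had lower values in low sodium in replicates 1 and 2 and 4 in replicate 3. The macrophage marker Adgre1, which encodes F4/80, also rose, with log2 signals of 11.76, 11.87 and 12.16 with normal sodium and 12.61, 12.64 and 13.45 with low sodium (difference 0.96, standard error 0.104, limma adjusted p 0.00320). The part of either marker change in the result was not tested. The median signal of the 10 osteoclast markers was 7.44, 7.23 and 6.04 with normal sodium and 8.51, 8.28 and 7.57 with low sodium.

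Vegfa, which encodes the angiogenic factor VEGF-A, was the only one of the 8 listed HIF targets outside glycolysis that rose. Its log2 signal was 9.70, 9.56 and 9.13 with normal sodium and 10.29, 10.26 and 9.79 with low sodium. The groups did not overlap, and replicate 3 was the lowest array within each medium. The difference was almost the same in replicates 1 and 2 (0.65) and in replicate 3 (0.66), which gave 0.65 with a standard error of 0.0889 and a limma adjusted p of 0.00692 (plain fit 0.610). Another probe set of the gene, also above the median signal, differed by -0.02 in replicates 1 and 2 and by 0.91 in replicate 3, so the probe sets disagree in the former. The call was lost without low-sodium replicate 1 (adjusted p 0.0554) or 2 (0.0529), without normal-sodium replicate 2 (0.0534) and with the mean (0.0746) or median (0.0659) of the gene's probe sets.

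Slc16a1, which encodes the monocarboxylate transporter MCT1, was the only one of the 32 genes that fell. Its log2 signal was 12.96, 12.76 and 12.71 with normal sodium and 12.43, 12.30 and 12.38 with low sodium. All low-sodium arrays lay below all normal-sodium arrays. Replicates 1 and 2 differed by -0.49 and replicate 3 by -0.33, and the fit gave -0.44 with a standard error of 0.0816 (limma adjusted p 0.0208, plain fit 0.605). The gene's other probe set was dim, with a mean log2 signal of 4.08, and averaging it in ended the call (0.474). The call was also lost without any 1 of the arrays of replicates 1 and 2 (adjusted p 0.0715 to 0.110) and with median centring (0.137).

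**Figure D1:**
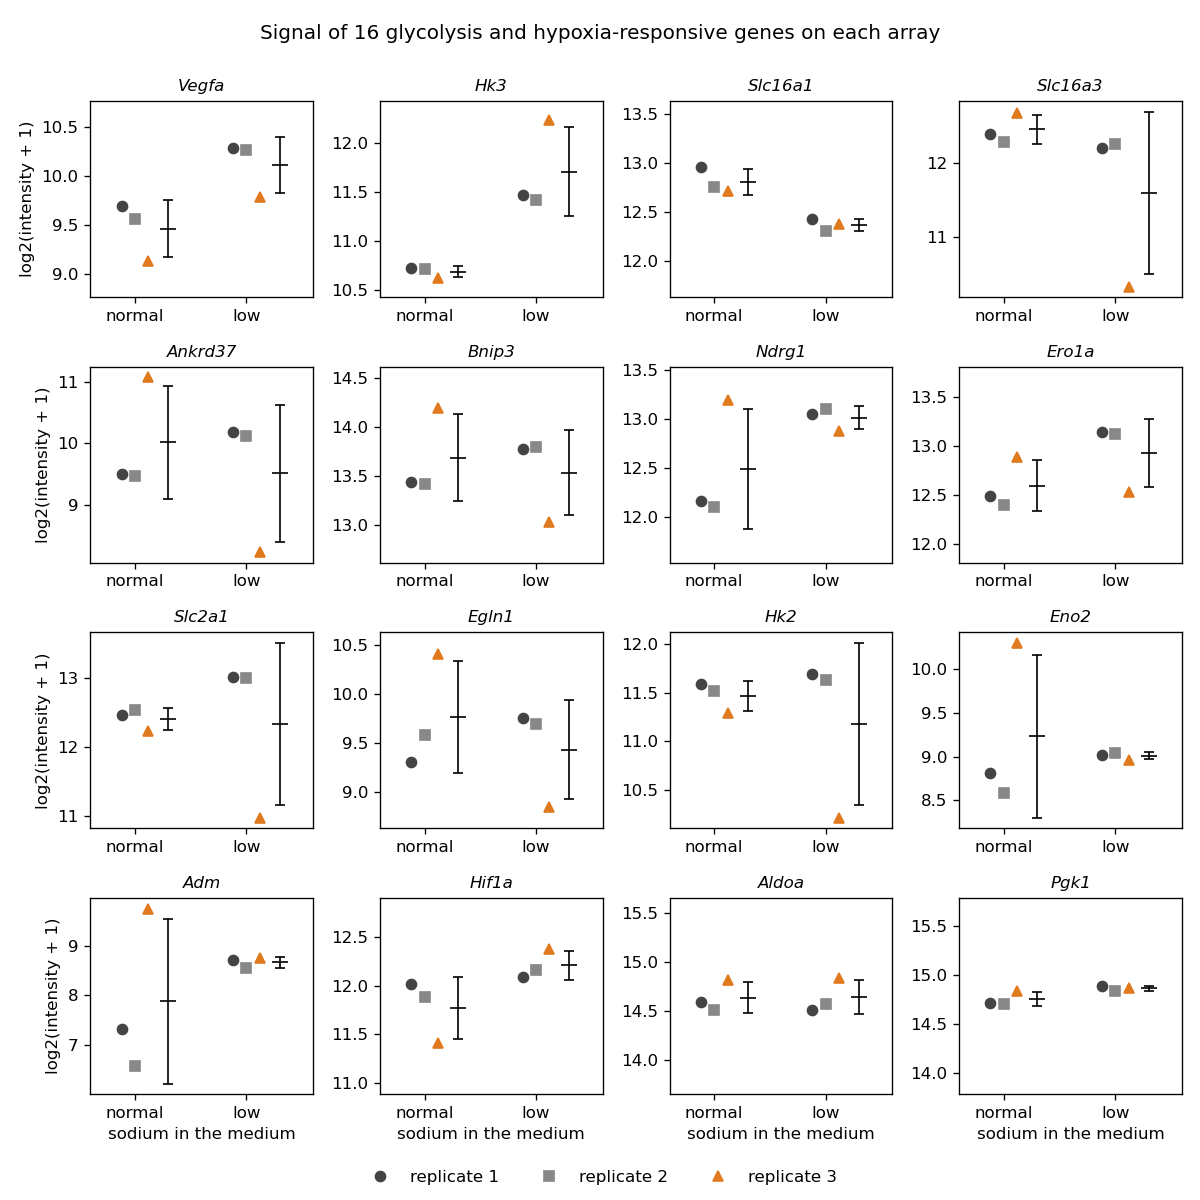
Log2(intensity + 1) of 16 of the genes on each array (vertical axis) in normal and low sodium (horizontal axis), with circles, squares and triangles for replicates 1, 2 and 3 and the bar giving the mean ± SD of 3 arrays. The groups are apart for Vegfa, Hk3, Slc16a1, Slc16a3 and Hif1a, while in the panels from Ankrd37 to Adm the triangle of replicate 3 departs from the other replicates in at least 1 medium. Each vertical axis covers its own range.

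The other glycolytic enzymes had no common direction in replicates 1 and 2. Over the 14 measured enzymes the median difference was 0.03 there, 7 being higher and 7 lower, and -0.18 in replicate 3, where 9 were lower. The same medians over all genes tested were 0.02 and -0.06. Under median centring of the arrays, which shifts every difference by -0.12 in replicates 1 and 2 and by 0.23 in replicate 3, both medians of the enzymes change sign, to -0.09 and 0.05, so the list has no direction that holds across scalings. For 5 enzymes from aldolase to lactate dehydrogenase the media lay close in replicates 1 and 2. The log2 difference there was -0.01 for Aldoa (aldolase A), -0.05 for Tpi1 (triosephosphate isomerase), 0.15 for Pgk1 (phosphoglycerate kinase), -0.0033 for Pgam1 (phosphoglycerate mutase) and -0.07 for Ldha (lactate dehydrogenase A). In replicate 3 these 5 lay at 0.02, -0.46, 0.03, -0.20 and -0.26. Hk1, the hexokinase of most tissues, differed by 0.08 and -0.15.

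Other enzymes moved apart in replicate 3. Hk2, the inducible hexokinase, had log2 signals of 11.59, 11.52 and 11.29 with normal sodium and 11.69, 11.63 and 10.21 with low sodium. The last of these arrays was low by more than a log2 unit while the other low-sodium arrays sat just above their normal-sodium counterparts, which gave differences of 0.11 and -1.08. Pfkp, the platelet form of phosphofructokinase, gave 0.10 and -0.88. Pfkl, the liver form of the same enzyme, was lower in low sodium on every array, with log2 signals of 12.74, 12.80 and 13.14 with normal sodium and 12.46, 12.58 and 11.84 with low sodium, and the gap grew from -0.25 to -1.30. Pfkm, the muscle form, differed by -0.35 and -0.06, its adjusted p over all arrays being 0.225. Eno2, the neuronal enolase, had log2 signals of 8.82, 8.58 and 10.30 with normal sodium and 9.02, 9.05 and 8.97 with low sodium, so that normal-sodium replicate 3 stood above the 5 other arrays and the difference turned from 0.34 to -1.33. Aldoc (aldolase C) was higher in replicate 3 of both media, with differences of 0.06 and 0.53, while its other bright probe set gave 0.01 and -0.13. Ldhb (lactate dehydrogenase B) turned from -0.52 to 0.77 on its chosen probe set. Its other probe sets were dim. The mean of all its probe sets gave -0.03 and -0.70 and their median 0.35 and -1.57, so its direction depends on the probe set.

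Of the 3 regulators, none passed the fit with a term for replicate 3. Pfkfb3, which makes the activator of phosphofructokinase fructose 2,6-bisphosphate, had log2 signals of 9.08, 9.22 and 9.65 with normal sodium and 8.67, 8.88 and 8.36 with low sodium. Its groups did not overlap, with differences of -0.38 and -1.29 and a limma adjusted p of 0.0878. Pfkfb4, its relative, differed by 0.15 and -0.16, and Pdk1, the kinase that switches off pyruvate dehydrogenase, by -0.19 and -0.67.

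Among the transporters, Slc2a1 (the glucose transporter GLUT1) and Slc16a3 (the lactate exporter MCT4) had their lowest signal on the same array. Slc2a1 had log2 signals of 12.46, 12.54 and 12.23 with normal sodium and 13.02, 13.00 and 10.98 with low sodium. Low sodium was higher by 0.51 in replicates 1 and 2, with tight pairs, while the difference was -1.25 in replicate 3. Slc16a3 had log2 signals of 12.41, 12.30 and 12.69 with normal sodium and 12.22, 12.26 and 10.31 with low sodium, with differences of -0.12 and -2.38, and its groups did not overlap. Slc2a3 (GLUT3) was higher in low sodium on every array, at 11.39, 11.20 and 11.34 with normal sodium and 11.47, 11.69 and 12.17 with low sodium. Its differences were 0.28 and 0.84, with a limma adjusted p of 0.0776. Its 3 other bright probe sets gave 0.53, -0.20 and -0.18 in replicates 1 and 2, so the direction there depends on the probe set. In replicate 3 all 3 were higher in low sodium.

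In the oxygen-sensing group, Hif1a itself had log2 signals of 12.02, 11.88 and 11.42 with normal sodium and 12.09, 12.15 and 12.37 with low sodium. The groups did not overlap, but the differences of 0.17 and 0.95 were unequal and the gene was not called (limma adjusted p 0.144). HIF-1α is controlled mainly at the level of the protein, which the arrays do not measure. Egln1 (the prolyl hydroxylase PHD2), which is itself a HIF target, had log2 signals of 9.31, 9.59 and 10.41 with normal sodium and 9.76, 9.69 and 8.86 with low sodium, with normal-sodium replicate 3 the highest array and low-sodium replicate 3 the lowest. Its differences were 0.28 and -1.55. Egln3 (PHD3), another hydroxylase that HIF induces, was higher in replicate 3 of both media and lower in low sodium in all replicates, the difference being -0.32 for replicates 1 and 2 and -0.72 in replicate 3. Its other bright probe set gave 0.53 for replicates 1 and 2 and -0.75 for replicate 3, so the direction holds for replicate 3 alone.

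The 8 HIF targets outside glycolysis were all higher in low sodium in replicates 1 and 2, by 0.05 to 1.67 with a median of 0.65, except that P4ha1 turned to -0.07 under median centring and to -0.0044 with the mean or median of its probe sets, and 6 of the 8 were lower in replicate 3, where the median was -0.34. The medians over all genes tested were 0.02 and -0.06. Of the 32 genes, Ankrd37, a small ankyrin repeat protein gene induced by hypoxia, had the widest swing, with log2 signals of 9.51, 9.47 and 11.07 with normal sodium and 10.18, 10.12 and 8.23 with low sodium. In replicates 1 and 2 the low-sodium arrays were above the normal ones by 0.66, and in replicate 3 the order was the opposite, at -2.84. Bnip3, a mitophagy receptor of the outer mitochondrial membrane, went from 0.35 to -1.16, with log2 signals of 13.44, 13.42 and 14.20 with normal sodium and 13.78, 13.79 and 13.03 with low sodium.

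Ndrg1, a stress-responsive gene of the NDRG family, had log2 signals of 12.16, 12.10 and 13.19 with normal sodium and 13.05, 13.10 and 12.88 with low sodium. The low-sodium arrays lay close together, and it was the normal-sodium arrays that separated, replicate 3 being more than a log2 unit above the others. Its differences were 0.94 and -0.31. Adm, the gene of the vasodilator peptide adrenomedullin, followed the same course, at 7.32, 6.57 and 9.74 with normal sodium and 8.70, 8.54 and 8.75 with low sodium, with differences of 1.67 and -0.99. Ero1a, an oxidase that helps proteins form disulphide bonds in the endoplasmic reticulum, had log2 signals of 12.49, 12.40 and 12.89 with normal sodium and 13.14, 13.12 and 12.53 with low sodium and differences of 0.69 and -0.36. P4ha1, a collagen prolyl hydroxylase subunit, moved little, at 0.05 and -0.28. Car9, the carbonic anhydrase that acidifies the cell's surroundings, was higher in low sodium in both, by 0.36 in replicates 1 and 2 and by 1.34 in replicate 3, where the low-sodium array reached 9.90 against 8.56.

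**Figure D2:**
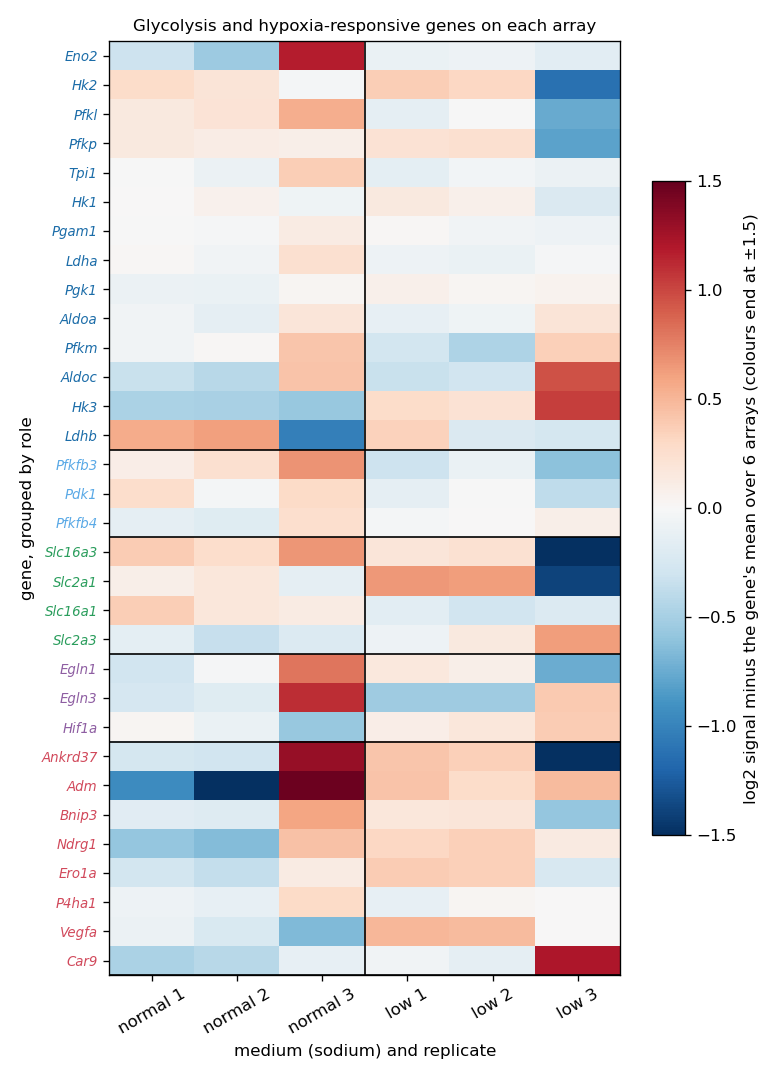
Log2 signal of each of the 32 genes on each array minus the gene's mean over the 6 arrays, as colour from blue (lower) to red (higher), with genes in rows by role and arrays in columns by medium and replicate; colours end at ±1.5. In the HIF target block normal-sodium replicate 3 lies above normal-sodium replicates 1 and 2 in 7 of the 8 genes, and low-sodium replicate 3 lies below low-sodium replicates 1 and 2 in 5.

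A fit without replicate 3 gave more calls. With the 4 arrays of replicates 1 and 2 and the trended prior, limma called 2705 genes (14.9%), 1322 higher (7.27%) and 1383 lower (7.60%), and 12 of the 32. Of the 9097 brighter genes it called 28.3%. The 9 called higher included 6 of the 8 HIF targets, namely Ndrg1 (adjusted p 4.90e-05), Ero1a (0.000163), Bnip3 (0.00116), Ankrd37 (0.00122), Vegfa (0.00173) and Adm (0.00639), together with Hk3 (0.000214), Slc2a1 (0.000516) and Pgk1 (0.0401). The 3 called lower were Slc16a1 (0.00532), Pfkl (0.0238) and Pfkm (0.0471). Of the 14 glycolytic enzymes, 2 were higher and 2 lower by this fit. With 2 arrays per medium the spread rests on 2 residual degrees of freedom and on the prior.

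A further fit asked, gene by gene, whether the difference between media was itself different in replicate 3, through an interaction of medium and replicate 3. It called 1838 genes (10.1%), 974 with a lower difference in replicate 3 (5.35%) and 864 with a higher one (4.75%). It called 18 of the 32 genes (56.2%), 14 with a lower difference in replicate 3 and 4 with a higher one. Median centring, which moved the median of this shift over all genes from -0.07 to 0.28, changed the split to 414 lower and 2801 higher over all genes and to 12 lower and 9 higher among the 32. Among the 9097 brighter genes the share called was 18.8%. By role the calls were 6 of 8 HIF targets, 7 of 14 enzymes, 2 of 4 transporters, 2 of 3 oxygen-sensing genes and 1 of 3 regulators. Of the 32 genes, the largest shift was that of Ankrd37, -3.51 (limma adjusted p 0.000226), and among genes with a higher difference in replicate 3 that of Car9, 0.98 (0.0235). With a prior spread shared by all genes the same fit called none of the 18194, of which 3391 had an unadjusted p under 0.05, and none of the 32, of which 16 had. Replicate 3 had 1 array per medium, so its spread was taken to be that of replicates 1 and 2, and the test compares these arrays rather than independent repeats of the conditions.

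**Figure D3:**
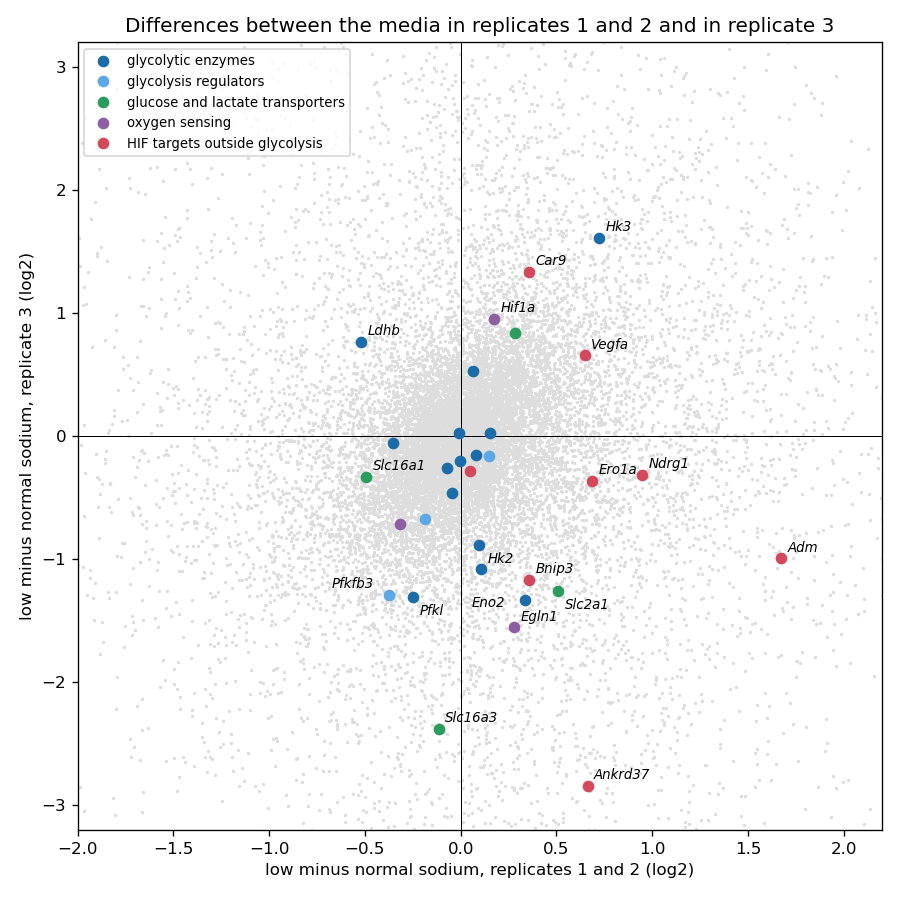
Difference between low and normal sodium (log2) in replicates 1 and 2 (horizontal axis) against that in replicate 3 (vertical axis), with all genes in grey and the 32 genes coloured by role; genes outside the plotted range are not drawn. Of the 32 genes, 13 lie in the lower right corner, higher in replicates 1 and 2 and lower in replicate 3, among them 6 of the 8 HIF targets, against 23.7% of all genes.

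The switch from higher to lower was found in 13 of the 32 genes, which is 40.6%, against 23.7% of all genes and 16.5% of those brighter than the median gene, while 10 of 32 were lower in both (30.2% of all genes). Under median centring the counts were 8 of 32, with 5 of 8 HIF targets, against 14.1% of all genes. In normal sodium, replicate 3 was above both other replicates in 22 of 32 genes (35.5% of all genes and 47.0% of the brighter ones) and in 7 of 8 HIF targets. In low sodium, replicate 3 was below both others in 17 of 32, a share near that of all genes (52.2%), and in 5 of 8 HIF targets. The median signal of the HIF targets was 10.50, 10.41 and 11.37 with normal sodium, against 10.77, 10.83 and 10.64 with low sodium. The spiked Bacillus transcripts were lower on both replicate 3 arrays, and whether that departure had a part in these medians was not tested. The groups were apart for 8 of the 32 genes (17.5% of all genes and 26.3% of the brighter ones, so near the background), 4 higher in low sodium (8.44%), namely Hk3, Slc2a3, Hif1a and Vegfa, and 4 lower (9.07%), namely Pfkl, Pfkfb3, Slc16a1 and Slc16a3.

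Probe sets of one gene gave a further reading. The 32 genes had 74 probe sets, and 20 of them had further probe sets above the median signal, 37 in all. The sign of the difference was that of the chosen probe set in 26 of the 37 for replicates 1 and 2 and in 33 for replicate 3. All 4 further probe sets of Ndrg1, both of Slc2a1, both of Ero1a and the single one of Adm and of Egln1 kept the sign in replicates 1 and 2 and in replicate 3. For Aldoa 3 of 4 kept it in replicates 1 and 2 and 1 of 4 in replicate 3. For Slc2a3 1 of 3 kept it in replicates 1 and 2 and all 3 in replicate 3. The single one of Egln3, Vegfa, P4ha1 and Pfkfb3 did not keep it in replicates 1 and 2.

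The promoters of these genes were searched for the core of the HIF binding motif, the 5 letters ACGTG or GCGTG read on either strand (CACGT and CACGC on the other), in the 250 bases before the start of each gene as RefSeq gives it for mouse assembly GRCm38.p6. Of the 32 genes, 30 had a window. A gene with several starts was counted where any of its windows held a core. Overlapping matches were counted once, and a match inside the palindromic E-box CACGTG, which other factors also bind, was counted as a core too. A core stood in 28 of the 30 genes (93.3%), in all 7 HIF targets and in 12 of 14 enzymes with a window. The share was 53.6% of 14368 measured genes with a window, 64.4% of those brighter than the median gene and 41.5% of all 27025 genes with a window. Counted by window, 34 of the 41 windows of the 30 genes held a core (82.9%), against 38.6% of all 32851 windows. The latter include windows of genes not measured here. None of these background shares was matched to the 30 genes for base composition. The Vegfa window at chr17:46025164-46025413 held 2 cores, and that at chr17:46032378-46032627 held 0. Vegfa is on the minus strand, so the window with cores lies downstream of the other start. The gene counts among the 7 through that window alone, and its upstream window holds no core. The E-box stood in 6 of 30 (20.0%) and in 8.74% of measured genes. A match describes the sequence and is no evidence that a factor bound there. The 5 windows printed next are those of the HIF targets Ankrd37 and Bnip3, which changed order between replicates, of the glucose transporter Slc2a1, of Hk3, which was higher in low sodium in each replicate, and of Eno2, an enzyme that also changed order and whose window holds no core. Bases are in lower case and the cores in capitals, on the strand of the gene. The regions are chr8:45999851-46000100 (minus strand), chr7:138909507-138909756 (minus strand), chr4:119108495-119108744 (plus strand), chr13:55021386-55021635 (minus strand) and chr6:124769674-124769923 (minus strand), in that order.
Ankrd37: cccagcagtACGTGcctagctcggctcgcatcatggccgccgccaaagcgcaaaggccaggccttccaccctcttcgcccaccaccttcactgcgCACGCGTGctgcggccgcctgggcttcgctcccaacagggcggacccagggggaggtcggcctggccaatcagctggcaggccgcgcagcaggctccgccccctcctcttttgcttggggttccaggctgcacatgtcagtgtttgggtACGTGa
Bnip3: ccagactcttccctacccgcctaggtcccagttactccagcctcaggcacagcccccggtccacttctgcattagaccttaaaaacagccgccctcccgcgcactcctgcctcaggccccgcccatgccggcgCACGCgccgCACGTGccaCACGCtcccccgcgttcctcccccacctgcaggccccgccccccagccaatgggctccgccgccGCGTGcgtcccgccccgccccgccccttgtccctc
Slc2a1: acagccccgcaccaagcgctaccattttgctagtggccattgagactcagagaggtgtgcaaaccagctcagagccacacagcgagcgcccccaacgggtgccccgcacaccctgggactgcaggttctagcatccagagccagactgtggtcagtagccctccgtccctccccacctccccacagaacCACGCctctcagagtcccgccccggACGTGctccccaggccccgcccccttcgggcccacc
Hk3: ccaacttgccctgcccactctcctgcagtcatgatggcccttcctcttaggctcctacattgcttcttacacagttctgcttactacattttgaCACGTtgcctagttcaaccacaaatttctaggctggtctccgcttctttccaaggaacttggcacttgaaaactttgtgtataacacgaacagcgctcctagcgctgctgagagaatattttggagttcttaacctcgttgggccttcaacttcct
Eno2: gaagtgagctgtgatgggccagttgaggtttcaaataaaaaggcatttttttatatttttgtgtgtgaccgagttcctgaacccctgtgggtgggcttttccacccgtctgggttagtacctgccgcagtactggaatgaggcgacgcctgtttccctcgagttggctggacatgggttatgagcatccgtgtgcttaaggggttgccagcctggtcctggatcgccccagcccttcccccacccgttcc
Ankrd37, Bnip3, Slc2a1 and Hk3 hold 3, 4, 2 and 1 cores, the 4 of Bnip3 including an E-box, and Eno2, with differences of 0.34 and -1.33, holds none. Tpi1 was the other gene without a core. Slc2a3 and Ndrg1 had no window.

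Other genes of the pathways gave further context. Of the 24 other genes of glycolysis and pyruvate use, none rose and 1 fell, Pdk3, a pyruvate dehydrogenase kinase (-0.80, standard error 0.0840, limma adjusted p 0.00306), with medians of -0.08 and 0.09 in replicates 1 and 2 and in replicate 3. Pkm, the pyruvate kinase gene, differed by -0.13 and -0.34 with groups that did not overlap, and was not called (adjusted p 0.133). Gapdh lay on probe sets annotated to several genes. The manufacturer's control probe set for its 3′ end read 14.73, 14.61 and 14.91 with normal sodium and 14.63, 14.70 and 14.85 with low sodium.

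Of the 14 other hexose and monocarboxylate transporters, 1 rose and 1 fell. Slc2a6 (GLUT6) fell by 0.66 (limma adjusted p 0.00396), with log2 signals of 10.95, 10.88 and 10.40 with normal sodium and 10.23, 10.28 and 9.73 with low sodium. Slc5a1, a sodium-coupled glucose transporter, rose (limma adjusted p 0.0185), with log2 signals of 2.09, 1.24 and 2.39 with normal sodium and 5.18, 6.06 and 5.08 with low sodium. All of these lay below the median of their array, so no size is given. Bsg, the chaperone of the lactate transporters, differed by 0.04 and -0.20. In the 8 genes of the pentose phosphate pathway none was called, with medians of -0.25 and 0.03, and of 11 genes of glycogen use 1 rose, Gyg (glycogenin, 0.64, limma adjusted p 0.0269).

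Among the 14 other HIF subunits and regulators none was called in the fit with a term for replicate 3. Epas1, which encodes HIF-2α, differed by 0.03 and -0.12. Arnt gave 0.29 and -0.17, Vhl, the ligase component that marks hydroxylated HIF-1α, gave -0.05 and -0.25, and Hif1an, the asparagine hydroxylase, gave 0.35 and 0.22 with groups that did not overlap (adjusted p 0.196).

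Of the 34 other HIF targets, 21 were higher in replicates 1 and 2 (9508 of all 18194 genes) and 7 in replicate 3 (8404 of all genes). Their median differences were 0.07 and -0.51, and 27 were lower in replicate 3 (9790 of all 18194 genes). In 15 (44.1%) the value was higher in replicates 1 and 2 and lower in replicate 3. The last of these counts compares with 23.7% of all genes and 16.5% of those brighter than the median gene. It was not made under median centring, which shifts differences in replicates 1 and 2 by -0.12. Higd1a (0.0081), Stc2 (0.05) and Ak4 (0.06) were among the 15 and differed there by less than that shift. The interaction fit called 17 of the 34 (10.1% of all genes and 18.8% of the brighter ones), 14 lower and 3 higher in replicate 3. In the fit with a term for replicate 3, Hmox1 (heme oxygenase 1) rose by 0.67 (limma adjusted p 0.0273) and Car12 (carbonic anhydrase 12) fell by 0.57 (0.0467). Arg1 (arginase 1) rose in the same fit (limma adjusted p 0.0496), from signals of 3.91, 2.58 and 2.63 to 4.91, 6.04 and 6.61. All of these but low-sodium replicate 3 lay below the median of their array, so no size is given. Ddit4, an inhibitor of mTORC1 that hypoxia induces, was higher in replicate 3 of both media, at 9.14, 9.09 and 10.95 with normal sodium and 9.06, 8.70 and 10.73 with low sodium, and its differences of -0.24 and -0.22 were alike.

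**Figure D4:**
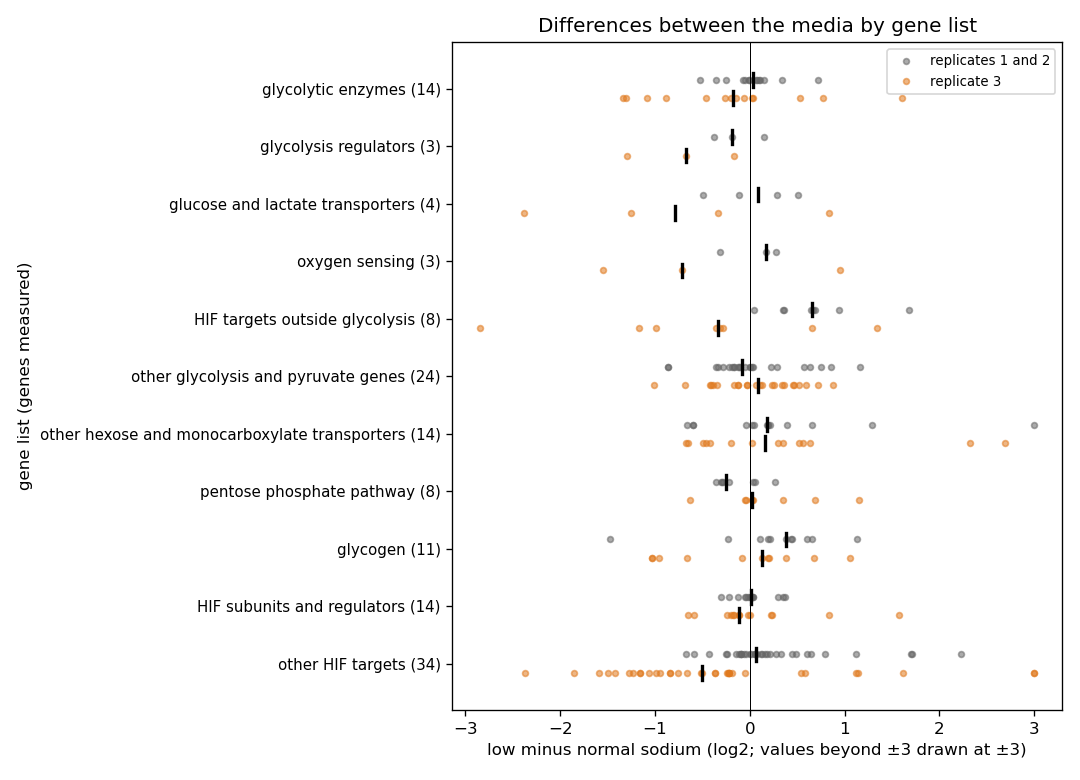
Difference between low and normal sodium (log2, horizontal axis) of each measured gene by list, in grey for replicates 1 and 2 and in orange for replicate 3, with black bars at the medians and values beyond ±3 drawn at ±3. The medians of the HIF targets outside glycolysis are 0.65 and -0.34, those of the glycolytic enzymes 0.03 and -0.18, and those of the other HIF targets 0.07 and -0.51.

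All 9 macrophage markers were above the median of all genes, and of these Adgre1 alone was called in the fit with a term for replicate 3. Of the markers of other cells the cultures might hold, 7 of 7 fibroblast and osteoblast, 4 of 5 T cell, 4 of 4 B cell, 3 of 3 erythroid and 5 of 5 endothelial genes were below it, and none of these was called in the fit with a term for replicate 3.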

How the data were processed

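Total RNA, 5 µg per sample, was labelled with biotin and hybridised, per the labels' protocols. The authors deposited 1 linear intensity for each probe set of each array, and Partek was used per the submitters' processing notes. The step from probes to probe sets was not given in the sources used here. Arrays had been scaled, as their trimmed mean intensity was 499.8 throughout. Median intensities were 70.2, 66.5 and 56.1 with normal sodium and 74.5, 74.0 and 47.8 with low sodium, and the number of arrays limits the precision.

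Starting from the deposited intensities, log2(intensity + 1) was computed here. Of 45101 probe sets, 64 controls were left out, and of the other 45037, 34945 carried 1 gene in the platform annotation, 932 several and 9160 none. Entrez identifiers of 34741 matched RefSeq (GRCm38.p6), which gave current symbols and promoter windows. Of the probe sets annotated to 1 gene, the one with the highest mean over 6 arrays represented each of 18194 genes.

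Models were fitted with the limma package, version 3.58.1, under R 4.3.3 (lmFit with eBayes, two-sided, Benjamini-Hochberg over all genes, threshold 0.05): a plain fit with a constant prior, and fits with a term for replicate 3, or its interaction with medium, with a trended prior. They were tested on simulated data with known changes. The simulated noise was drawn from the fit with a term for replicate 3, so the outcome cannot vouch for the fits on these arrays. The genes, the lists and the fits were chosen with earlier results of these data known, so no p-value is given over a list. Each of the 35 genes is named whatever its p, as are the genes of the other pathway lists called in the fit with a term for replicate 3 and 8 genes listed by name (Gapdh, Pkm, Epas1, Arnt, Vhl, Hif1an, Ddit4 and Bsg). Alternatives were the pseudocount, filters on dim genes, array scaling, the choice of probe set, the prior, a replicate block, and leaving out each array.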

Additional observations from a re-analysis of the deposited data

Results flagged for a closer look

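For 18 of the 32 genes the difference between media in replicate 3 departed from that in replicates 1 and 2 by the interaction fit with limma. The values here are the difference in replicate 3 minus that in replicates 1 and 2 on the log2 scale, each with its adjusted p. Among the HIF targets outside glycolysis they were -3.51 for Ankrd37 (0.000226), -2.67 for Adm (0.0124), -1.52 for Bnip3 (0.000248), -1.26 for Ndrg1 (0.000581) and -1.05 for Ero1a (0.00132), and Car9 had the opposite sign at 0.98 (0.0235). The transporters Slc16a3 and Slc2a1 gave -2.26 (0.000231) and -1.76 (0.000299). The oxygen-sensing genes gave -1.83 for Egln1 (0.00313) and 0.78 for Hif1a (0.00652). Among the enzymes Eno2 gave -1.67 (0.00439), Hk2 -1.19 (0.00153), Pfkl -1.05 (0.00207), Pfkp -0.98 (0.00108) and Tpi1 -0.41 (0.0326), while Aldoc gave 0.47 (0.0178) and Hk3 0.89 (0.00295). The regulator Pfkfb3 gave -0.91 (0.0356).

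For Hk3, Hif1a, Car9 and Aldoc the difference had the same sign in replicates 1 and 2 as in replicate 3 and was larger in replicate 3, except that Aldoc was at -0.06 in replicates 1 and 2 under median centring and its other bright probe set gave 0.01 and -0.13. For Ankrd37, Adm, Egln1, Slc2a1, Eno2, Bnip3, Ndrg1, Hk2, Ero1a and Pfkp the sign turned from higher to lower in low sodium, but under median centring Hk2 (-0.01 and -0.86) and Pfkp (-0.02 and -0.66) were lower in both, as was Pfkp with the median of its probe sets (-0.02 and -0.95), and for Slc16a3, Pfkl, Pfkfb3 and Tpi1 both differences were below 0.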

How the results depend on the processing

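The plain fit called 1 gene. It called 0 with median centring (1130 at an unadjusted p under 0.05), quantile normalisation (1637), the median of a gene's probe sets (1343) or a replicate block (2083), 4 with a pseudocount of 16, 16 among the 9097 genes brighter than the median gene, 40 with a trended prior, and 0 to 3 without 1 array. With a term for replicate 3 and a constant prior it called 2, and with the trended prior on replicates 1 and 2 alone it called 2705, and 12 of the 32 genes. In the fit with a term for replicate 3, the 1382 calls became 2 with a constant prior, 822 with the mean of a gene's probe sets, 659 with median centring, 544 with a replicate block and 373 to 2681 without 1 array. The count of the 32 genes called, 3, became 0 with the constant prior (6 at an unadjusted p under 0.05), 1 with median centring or with the mean or median of a gene's probe sets, and 0 to 12 without 1 array, the 12 being found without either replicate 3 array. The interaction fit went from 1838 calls to 0 with a constant prior, 1050 and 1155 with the mean and median of a gene's probe sets, 3215 with median centring and 971 to 1378 without 1 array of replicates 1 or 2. Its 18 of the 32 became 0 with the constant prior (16 at an unadjusted p under 0.05) and 15 to 17 without 1 array. Why these counts moved was not tested.

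The median of the HIF targets in replicates 1 and 2, 0.65, became 0.53 with median centring and 0.44 and 0.36 with the mean and median of a gene's probe sets, and stayed above 0 in each. The median of the enzymes changed sign with median centring, to -0.0903 in replicates 1 and 2 and 0.0501 in replicate 3.

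Over all arrays, the fit on replicates 1 and 2 alone turned the sign of 9 genes: Ankrd37 to 0.66, Bnip3 to 0.35, Egln1 to 0.28, Eno2 to 0.34, Hk2 to 0.11, P4ha1 to 0.0488, Pfkp to 0.0963, Slc2a1 to 0.51 and Aldoa to -0.0070. Leaving out 1 array gave ranges of -0.86 to 0.66 for Ankrd37, -0.30 to 0.35 for Bnip3, -0.59 to 0.28 for Egln1, -0.45 to 0.34 for Eno2, -0.43 to 0.11 for Hk2, -0.13 to 0.0488 for P4ha1, -0.34 to 0.0963 for Pfkp, -0.27 to 0.51 for Slc2a1, -0.0174 to 0.0287 for Aldoa, -0.0366 to 0.08 for Hk1 and -0.52 to 0.19 for Ldhb. Aldoa also turned with the mean of its probe sets (-0.0354) and with median centring (-0.0015), and Hk1 with the mean or median of its probe sets (-0.0478), median centring (-0.0007) and quantile normalisation (-0.0008). Over all 6 arrays Hk1 and Aldoa differed by 0.0037 and 0.0028. Shared replicate numbers were not taken as pairs, since same-numbered arrays deviated together with correlations of only 0.10, 0.08 and 0.24 and normal-sodium replicate 2 correlated best with low-sodium replicate 1. The block changed the call of none of the 32 genes.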

Other observations

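Some of the 34 other HIF targets, chosen after their values were seen, had large departures in replicate 3. Selenbp1, a selenium-binding methanethiol oxidase, read 8.84, 8.90 and 12.59 with normal sodium and 9.12, 9.28 and 10.73 with low sodium. It was high on both replicate 3 arrays, and more so with normal sodium. Cxcr4, the receptor of the chemokine CXCL12, read 7.11, 7.04 and 7.94 with normal sodium and 7.58, 7.77 and 11.04 with low sodium, so that low-sodium replicate 3 stood alone. Higd1a, a mitochondrial protein induced by hypoxia, read 12.45, 12.46 and 12.81 with normal sodium and 12.46, 12.46 and 11.64 with low sodium, so that the media were alike in replicates 1 and 2 and apart in replicate 3. Tfrc, the transferrin receptor, went the other way, at 13.56, 13.57 and 10.89 with normal sodium and 13.35, 13.28 and 12.03 with low sodium.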
